A study of Mus musculus with 2 samples.

Results

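Trim28 and 8 other genes of the heterochromatin pathway that silences retroelements were read on 2 Affymetrix mouse arrays of Klf5-overexpressing embryonic stem (ES) cells. The 9 genes, Trim28, Setdb1, Atf7ip, Cbx1, Cbx3, Cbx5, Ehmt1, Ehmt2 and Morc3, were chosen by name from 18193 genes that have a probe set with a single gene symbol, and all of their 25 such probe sets were taken. The arrays hold RNA of clone 1 and of clone 2 of undifferentiated mouse E14 ES cells, 1 array per clone, kept in medium with 15% serum and LIF (leukaemia inhibitory factor, which sustains self-renewal). Both carry the Klf5 overexpression. Each line is a single clone, and the sources used here do not name the promoter that drives Klf5. Wild-type ES arrays, the study's comparison, were not analysed here, so the values give levels in Klf5-overexpressing cells and differences between 2 clones, not a response to Klf5.

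In this pathway KRAB zinc finger proteins bind retroelement sequences and recruit the co-repressor Trim28 (KAP1). Trim28 brings in Setdb1, a methyltransferase that places trimethyl marks on lysine 9 of histone H3 and works with its partner Atf7ip. The HP1 proteins Cbx1, Cbx3 and Cbx5 bind that mark, Ehmt1 and Ehmt2 (GLP and G9a) form a complex that places the dimethyl mark, and Morc3 is a nuclear ATPase needed for silencing of endogenous retroviruses. In ES cells, where DNA methylation of many retroelements is dispensable for their repression, this histone pathway keeps them silent.

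Both arrays carried the ES cell programme. All 11 ES cell markers, Pou5f1, Sox2 and Nanog among them, were above background in both clones, where 54.5% of all genes were. The 12 fibroblast feeder markers had 3 above background in both, Thy1 (7.54 and 7.66), Pdgfrb (7.33 and 7.16) and Loxl1 (6.88 and 7.11). The other feeder markers, Col1a1 (4.68 and 4.09) among them, were not above background in either clone. Of markers of other embryonic lineages, 6 of 12 for primitive endoderm, 3 of 11 for trophoblast and 3 of 10 measured for neurectoderm and mesoderm passed in both clones. Median differences between the clones over the members of these 5 lists that passed ran from -0.075 to 0.24. The mesoderm gene Mesp1, chosen after its values were seen, was the only marker above background past 2-fold, at 7.30 in clone 1 and 6.04 in clone 2. The part of these markers in the values below was not tested. In bulk RNA, fewer cells of a type and less RNA per cell cannot be told apart. Klf5 itself read 11.61 in clone 1 and 12.25 in clone 2 by its brightest probe set, 1.56-fold higher in clone 2. Only 1.37% of probe sets of like signal differed at least as much. Its other probe sets read 6.97 and 7.26, and 4.81 and 4.77, the last pair not above background. The part of Klf5 in the differences below was not tested. Background was set per array from 76 probe sets of 52 adult tissue genes, at their 95th percentile, 6.02 in clone 1 and 5.89 in clone 2. Signals are on the log2 scale as deposited, differences are clone 2 minus clone 1, and folds rest on base 2, which was taken from the range of the values.

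The 250 bases upstream of the annotated start are shown for Trim28, which names the pathway, and for Atf7ip, Cbx1 and Morc3, the members with 2 or more probe sets above background that all read higher in clone 2 (values below). The sequences are from RefSeq (GRCm38.p6), in the 5' to 3' direction on the gene's strand. Capitals mark the letters of 2 short motifs bound by the Klf and Sp family. The first is CACCC, which reads as GGGTG from the other strand, and the second is GGGCGG, which reads as CCGCCC from the other strand. Both strands were searched. The motifs can share a base where they abut, as they do once upstream of Trim28.
Trim28 (chr7:13023902-13024151, plus strand): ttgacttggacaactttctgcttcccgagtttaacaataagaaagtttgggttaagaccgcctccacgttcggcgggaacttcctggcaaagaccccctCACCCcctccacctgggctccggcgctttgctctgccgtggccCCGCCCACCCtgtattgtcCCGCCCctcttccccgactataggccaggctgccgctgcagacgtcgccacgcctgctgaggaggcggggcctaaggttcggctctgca
Atf7ip (chr6:136518601-136518850, plus strand): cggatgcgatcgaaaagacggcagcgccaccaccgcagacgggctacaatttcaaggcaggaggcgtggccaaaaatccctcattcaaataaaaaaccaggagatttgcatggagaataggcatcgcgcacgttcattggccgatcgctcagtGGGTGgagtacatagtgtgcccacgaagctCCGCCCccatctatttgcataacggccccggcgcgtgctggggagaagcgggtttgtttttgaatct
Cbx1 (chr11:96788885-96789134, plus strand): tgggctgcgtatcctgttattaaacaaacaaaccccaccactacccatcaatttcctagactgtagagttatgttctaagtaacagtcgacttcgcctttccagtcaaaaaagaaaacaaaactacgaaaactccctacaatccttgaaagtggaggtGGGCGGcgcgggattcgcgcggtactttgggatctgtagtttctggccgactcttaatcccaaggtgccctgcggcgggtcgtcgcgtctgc
Morc3 (chr16:93831871-93832120, plus strand): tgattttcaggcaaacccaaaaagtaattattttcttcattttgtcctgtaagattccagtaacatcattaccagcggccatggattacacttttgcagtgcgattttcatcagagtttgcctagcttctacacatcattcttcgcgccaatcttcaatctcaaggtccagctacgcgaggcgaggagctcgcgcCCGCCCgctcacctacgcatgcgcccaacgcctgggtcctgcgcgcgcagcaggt

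The window of Trim28 held 2 matches of each motif, that of Atf7ip 1 of each, and those of Cbx1 and Morc3 1 GGGCGG and 0 CACCC. Across the 12 start windows listed for the 9 genes, 11 held GGGCGG and 7 held CACCC. Of all 32851 windows of this length in the table, 32.7% held GGGCGG and 52.0% CACCC. GC content ran from 49.6% (Cbx1) to 84.0% (a start of Ehmt2) over the 12 windows, with a median of 60.6%, against a median of 52.4% over all windows. A match describes the letters only, since factor binding was not measured in these samples.

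Signal for 8 of the 9 silencing genes was above background in both clones, and the differences between the clones were near those of all genes. Of the 25 probe sets, 19 passed background in both clones and 6 in neither, where the share over all single-symbol probe sets was 46.5% in both. Represented by its brightest probe set, each of 8 of the 9 genes was above background in both clones (54.5% of all genes were), and Cbx3 was the exception. Of those 8, 0 differed 2-fold or more, against 60 of 10577 genes (0.567%), and likewise 0 of the 19 probe sets (0.789% over all probe sets). At these shares a count of 0 does not set the members apart. The median difference of the 8 genes was 0.085, beside 0.08 over all genes above background in at least 1 clone. The median absolute difference was 0.09 over the 8 genes, beside 0.18 over all genes, but 0.16 over the 19 probe sets, beside 0.18 over all probe sets, which cover dimmer signals too.

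**Figure D1:**
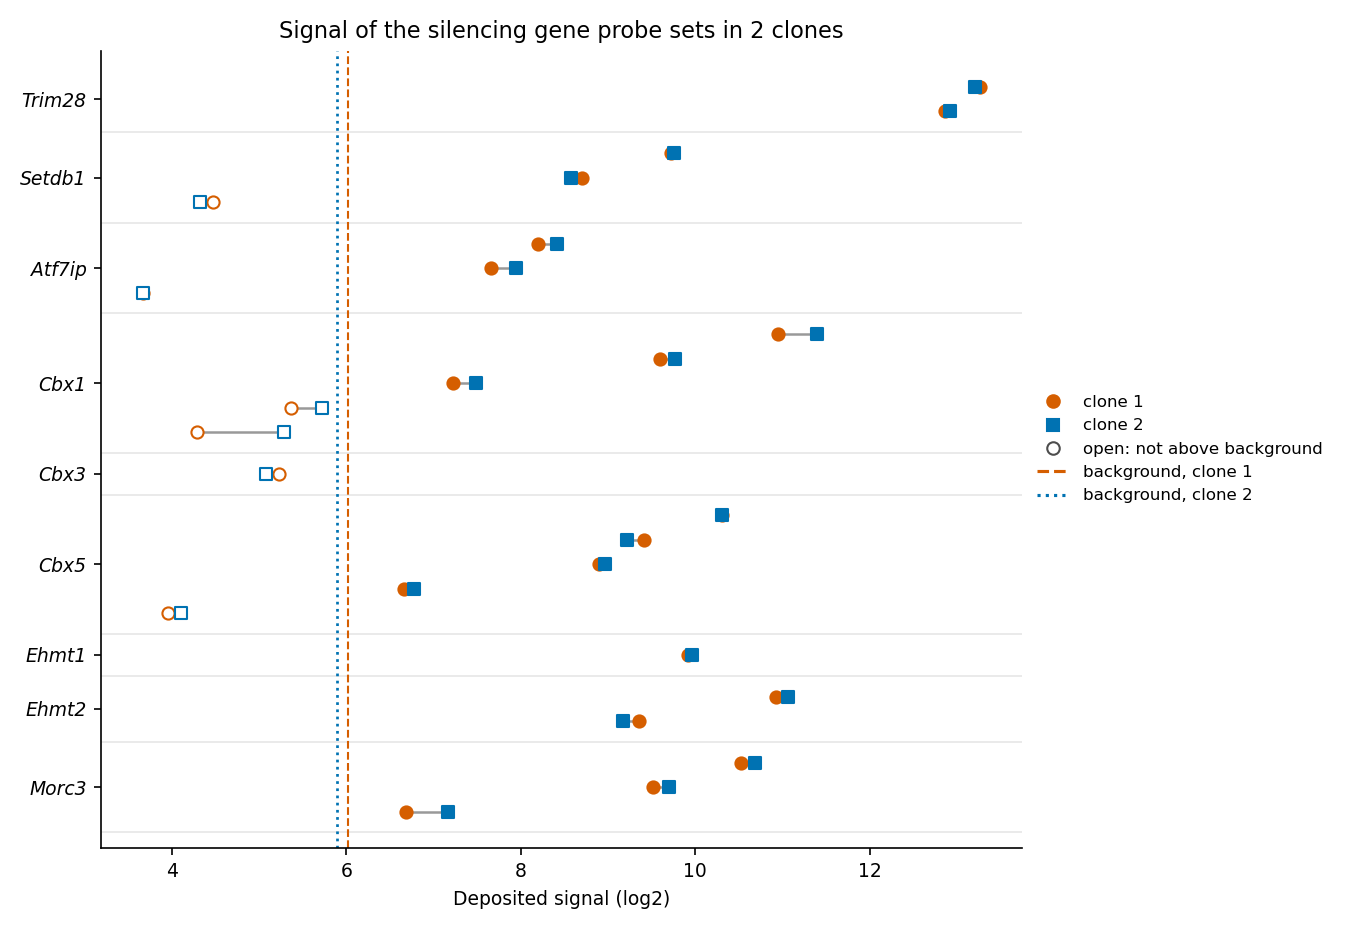
Deposited log2 signal of each of the 25 probe sets (rows, grouped by gene) in clone 1 (circles) and clone 2 (squares), with open symbols for probe sets not above background and vertical lines at the background levels of 6.02 (clone 1) and 5.89 (clone 2). Filled pairs lie close together, the widest being Morc3 at 6.68 and 7.16 and Cbx1 at 10.95 and 11.39, and the single Cbx3 probe set lies left of both lines.

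With 1 array per clone no test between the clones was possible, so each difference is set beside the spread over all probe sets of like signal. That spread, the SD of the difference in 4 bands of mean signal, was 0.392 in the dimmest band and 0.296, 0.267 and 0.221 in the next ones up to the brightest. Of the 8 genes 6 were higher in clone 2, where 61.5% of all genes were. Of the 19 probe sets 14 were, against 61.6% of all probe sets above background. The count of genes depends on the scale of the arrays: it was 8 after median centring (75.0% of all genes), 4 after quantile normalization (48.5%) and 4 after loess normalization (50.6%).

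Trim28, the co-repressor at the centre of the pathway, was read by 2 probe sets. The probe set 1456308_x_at gave 13.26 in clone 1 and 13.21 in clone 2 (mean 13.24 ± 0.035, SD, n = 2), and 1415869_a_at gave 12.86 and 12.92. The clones were thus apart by -0.05 and 0.06, in opposite directions. In the brightest band 81.5% and 77.6% of 4806 probe sets differed at least as much. After median centring the first difference became 0.04, so Trim28 has no direction here.

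Setdb1, the enzyme of the trimethyl mark, read 9.72 and 9.76 by 1451833_a_at (9.74 ± 0.028, SD, n = 2) and 8.70 and 8.58 by 1416670_at. The first pair differed by 0.04 and the second by -0.12. The probe sets disagreed in sign, and the first turned to -0.05 under quantile normalization. Another probe set, at 4.47 and 4.32, was not above background in either clone.

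Atf7ip, the partner that protects Setdb1 in the nucleus, read 8.20 in clone 1 and 8.42 in clone 2 by 1449192_at (8.31 ± 0.156, SD, n = 2). By 1454973_at it read 7.66 and 7.94. Both probe sets were higher in clone 2, by 1.17-fold and 1.21-fold, and stayed so under the 3 other scalings. Differences of 0.22 and 0.28 were nevertheless common, being reached by 41.6% and 35.4% of the probe sets in their bands. The third, 1446323_at, gave 3.67 in both clones and was not above background.

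Among the HP1 genes, Cbx1 (HP1 beta) was the member furthest apart between the clones by its brightest probe set. This probe set, 1433718_a_at, gave 10.95 in clone 1 and 11.39 in clone 2 (11.17 ± 0.311, SD, n = 2). Clone 2 was 1.36-fold higher. In its band 299 of 4806 probe sets (6.22%) differed by at least 0.44 in either direction. The other probe sets above background were also higher in clone 2, 1436266_x_at at 9.60 and 9.77 and 1422935_x_at at 7.22 and 7.49, and all 3 kept this direction under every scaling run. All 3 carry the suffix _a_at or _x_at, so without suffixed probe sets Cbx1 has no reading above background. The 2 probe sets not above background gave 5.37 and 5.72, and 4.29 and 5.28. That last pair had the largest difference of any member probe set, 0.99, with neither signal above background.

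Cbx5 (HP1 alpha), by contrast, had no common direction over its 4 probe sets above background. The brightest, 1454636_at, gave 10.31 in both clones. The next, 1450416_at, gave 9.41 and 9.22, lower in clone 2 under every scaling run. The remaining pair gave 8.90 and 8.97, which turns to -0.05 under quantile normalization, and 6.66 and 6.77. One more probe set (3.96 and 4.10) was not above background.

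Cbx3 (HP1 gamma) had only 1 single-symbol probe set, 1432628_at, at 5.23 in clone 1 and 5.08 in clone 2, not above background in either. This value does not measure Cbx3 as a whole. The annotation gives 4 more probe sets to Cbx3 and its pseudogene Cbx3-ps5 together, and 3 of them were above background in both clones. They read 11.72 and 11.62, 11.12 and 11.33, and 10.32 and 10.24, and cannot be divided between the gene and its pseudogene. Their differences of -0.10, 0.21 and -0.08 had no common direction.

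The enzymes of the dimethyl mark had no settled direction between the clones. Ehmt1 was read by 1454776_at alone, at 9.92 and 9.96 (9.94 ± 0.028, SD, n = 2), a difference of 0.04 that became -0.05 under quantile normalization. Ehmt2 gave 10.93 and 11.06 by 1460692_at (11.00 ± 0.092, SD, n = 2) and 9.35 and 9.17 by 1426888_at. These Ehmt2 probe sets differed in sign, at 0.13 and -0.18, and each kept its sign under every scaling run. In their bands 53.4% and 50.3% of probe sets differed at least as much.

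Morc3, the ATPase of retrovirus silencing, was read by 3 probe sets, all above background and all higher in clone 2. The brightest, 1420091_s_at, gave 10.52 and 10.68 (10.60 ± 0.113, SD, n = 2), and 1452224_at gave 9.52 and 9.70. The dimmest, 1420092_at, gave 6.68 and 7.16, 1.40-fold higher in clone 2, and 13.5% of the 4820 probe sets in its band differed at least as much. The direction held under every scaling run, while the sizes of the brighter pair, 0.16 and 0.18, were reached by 44.1% and 38.5% of probe sets of like signal.

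**Figure D2:**
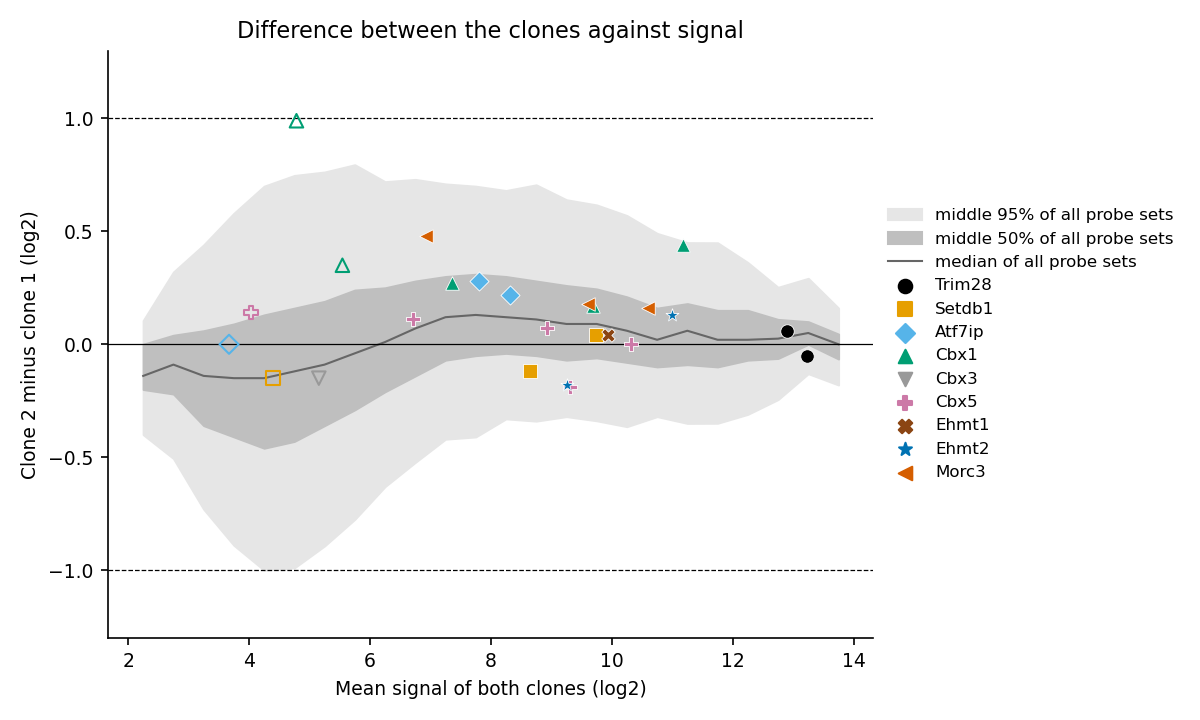
Difference between the clones (clone 2 minus clone 1, log2) against the mean signal of both clones for the 25 probe sets, with open symbols for those not above background, dashed lines at 2-fold, and grey bands for the middle 50% and 95% of all single-symbol probe sets in steps of signal. The member probe sets above background lie between -0.19 and 0.48, inside the dashed lines, with Cbx1 (0.44) and Morc3 (0.48) highest, and the open symbol near 1 is the Cbx1 probe set at 4.29 and 5.28.

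Probe sets of 1 gene serve as repeated readings of it, though they share the array and the RNA. Of 7 members with 2 or more probe sets above background, Atf7ip, Cbx1 and Morc3 had all of them higher in clone 2 (3 genes), 0 had all of them higher in clone 1, and 4 were mixed or equal. Over all 4420 such genes, 35.2% had all higher in clone 2, so the count among the members is near the background. Of genes with exactly 3 probe sets above background 31.0% had all higher in clone 2, as did Cbx1 and Morc3. The largest gap between probe sets of 1 member was 0.32, for Morc3, and the median gap was 0.27 over the 7 members and 0.31 over all such genes.

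The other genes of the pathway were then read by the brightest probe set of each. Of 13 further H3K9 methyltransferase genes and partners 11 were measured and 9 passed background in both clones. Their median difference was 0.05. Pogz, an HP1-binding zinc finger protein, was 9.50 in clone 1 and 9.99 in clone 2, and its 3 probe sets above background were all higher in clone 2. Rif1, a telomere and replication timing protein, gave 11.37 and 11.42 by its brightest probe set, and its 4 probe sets above background ran from -0.07 to 0.80.

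In the HUSH complex and MORC family, which act beside Setdb1 and Morc3, 8 of 9 genes passed in both clones, with 6 of them higher in clone 2 (61.5% of all genes) and a median of 0.18, beside 0.08 over all genes. Quantile and loess normalization lowered that median to 0.082 and 0.097. The HUSH subunit Pphln1 was 8.11 and 7.71 by its brightest probe set and 7.13 and 7.17 by another, so its sign is unsettled. Morc1, a germline paralogue of Morc3, was 11.18 and 11.40. Of the 3 TRIM paralogues of Trim28, 2 passed in both clones. By their brightest probe sets these went opposite ways, Trim24 at 9.86 and 10.24 and Trim33 at 10.17 and 9.84. Their median of 0.025 turns below 0 under quantile and loess normalization and was 0.22 with the mean over probe sets.

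The KRAB zinc finger genes and other recruiters had 8 of 9 measured genes above background in both clones and a median of -0.01, above 0 after median centring. Zfp57, which recruits Trim28 to imprinted loci, stood lowest, at 8.33 in clone 1 and 7.58 in clone 2, 1.68-fold lower in clone 2. It rests on 1 probe set. Of the probe sets in its band 2.43% differed at least as much, and it was lower in clone 2 under every scaling run. Yy1, a zinc finger protein without a KRAB domain, gave 11.54 and 11.58 by its brightest probe set, and its 4 probe sets above background ran from -0.26 to 0.04.

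All 12 measured SUMO pathway genes, which modify Trim28 and its partners, passed in both clones (median 0.10). Of the 12 genes, 7 were higher in clone 2 (58.3%, where 61.5% of all genes were) and 5 lower. The SUMO proteases Senp5, at 7.35 and 8.01, and Senp3, at 12.07 and 12.30, were higher in clone 2. The protease Senp1, named after its values were seen, was lower, at 8.19 and 7.67. Another Senp5 probe set (5.52 and 5.17) was not above background. Of 13 measured genes for histone H3.3 and its deposition and for chromatin assembly 12 passed in both clones. The median of the list, 0.06, falls below 0 under quantile and loess normalization. The H3.3 genes themselves were read near background, H3f3a at 6.10 and 6.23, and H3f3b at 5.79 and 6.05, which passed in clone 2 alone. Atrx, the remodeller that deposits that histone with Daxx, gave 10.15 and 10.59 by its brightest probe set. Its 7 probe sets, all above background, ran from -0.52 to 1.33 and so do not give 1 value. Hells, a helicase of the same list, was 11.85 and 12.12 by its brightest probe set, and its 3 probe sets above background ran from 0.11 to 0.95.

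All 5 DNA methylation genes passed in both clones (median 0.05). Dnmt3l, the catalytically inactive cofactor of the de novo enzymes, was 12.11 and 11.96. Of 11 genes listed as H3K9 demethylases, 10 passed in both clones (median 0.085). Kdm1a read 12.26 and 12.49. Phf2 read 6.15 and 6.95, 1.74-fold higher in clone 2, by the only 1 of its 4 probe sets above background. That signal was close to the background level of 6.02 in clone 1. Its other probe sets were lower in clone 2, at 5.04 and 4.81, 4.83 and 4.25, and 4.14 and 3.60.

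The Polycomb chromobox genes, which share the chromodomain of HP1 but read a different histone mark, held the single gene of these lists to pass 2-fold by its brightest probe set. Cbx6 was 8.11 in clone 1 and 9.16 in clone 2 by 1424407_s_at, 2.07-fold, and 8.36 and 8.78 by its other probe set, 1.34-fold. Under quantile and loess normalization the first fell under 2-fold, at 0.93 and 0.94. Cbx7 read 9.16 and 9.33 in the same list, where 3 of 4 measured genes passed in both clones and all 3 were higher in clone 2 by their brightest readings, where 61.5% of all genes were. A second Cbx7 probe set gave 6.79 and 6.65, so its sign is unsettled.

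Genes that H3K9 or DNA methylation is known to hold silent, germline and 2-cell genes for the most part, were also read. Of 23 measured, 14 passed background in both clones, 2 in clone 2 alone and 7 in neither, a share of 60.9% against 54.5% over all genes. Of the 16 that passed in at least 1 clone, 11 (68.8%) were higher in clone 2, 0 differed 2-fold, and the median was 0.095, near the 61.5%, 0.567% and 0.08 of all genes. Rhox5, a homeobox gene and the brightest of this list, gave 11.84 and 11.63, far above background, so it was not silent in either clone. Sycp1, of the synaptonemal complex, gave 5.77 and 6.41 and passed in clone 2 alone. Chosen after their values were seen, the germ cell genes Taf7l (6.92 and 7.32) and Ddx4 (8.08 and 8.61) were above background and higher in clone 2, while the homeobox genes Rhox6 (7.93 and 7.59) and Rhox9 (7.63 and 7.20) were lower. In their bands 20.4%, 7.40%, 27.1% and 17.5% of probe sets, in that order, differed at least as much. The germ cell genes Mael (9.43 and 9.48) and Sycp3 (8.57 and 8.63) were near level. Their differences fell below 0 under quantile normalization, at -0.05 and -0.06. Dazl and Slc25a31, of the same list, were above background and higher in clone 2, by 0.28 and 0.38. The germ cell genes named here were all higher in clone 2 as deposited, by unequal amounts. Whether germ cell genes moved as a group was not tested. Retroelement transcripts themselves were not analysed here.

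**Figure D3:**
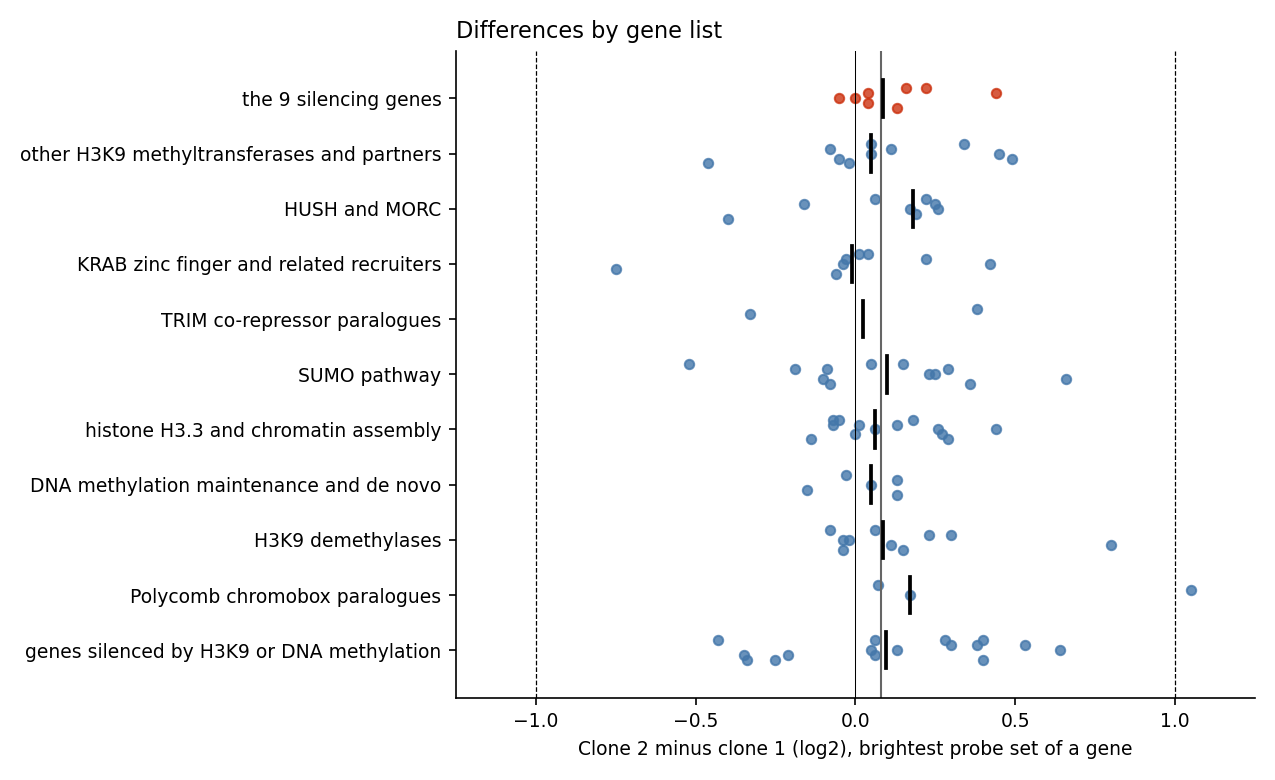
Difference between the clones (clone 2 minus clone 1, log2) of each gene above background in at least 1 clone, by its brightest probe set, for the 9 silencing genes (red) and the other lists of the pathway (blue), with black bars at list medians, a grey line at the median of all genes (0.08) and dashed lines at 2-fold. The silencing genes run from -0.05 to 0.44 around a median of 0.085. List medians run from -0.01 to 0.18, those of the KRAB, TRIM paralogue and histone H3.3 lists changing sign with the scaling, and Cbx6 (1.05) is the only point past a dashed line.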

How the data were processed

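Total RNA of 2 clones was hybridised to 2 arrays. The deposited table holds a log2 signal for each probe set on each array; the submitters' processing notes name Transcriptome Analysis Console. The sources used here do not give the background correction, summarisation, normalization or log base, and the range of 2.21 to 14.38 was read as base 2. The column medians were 5.27 and 5.18. Values with 2 decimals were used as deposited. Precision is limited by the number of arrays. The labels name 2 clones but no separate cultures or days.

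Of 45037 probe sets, 34945 had 1 gene symbol in the platform annotation, 932 several and 9160 are unnamed here; Entrez identifiers of 34741 matched the RefSeq gene table, which changed 0 symbols. A probe set suffix of _x_at or _s_at marks probes that may bind several transcripts. A gene was represented by its probe set with the highest mean, and members by all probe sets. Each array's background level came from 60 listed genes, Mylpf left out because earlier results showed it at a high signal. With 1 array per clone no p-value was computed, and the rule of size was 2-fold, with a signal above background in the higher clone. The 4 signal bands hold near-equal numbers of the probe sets that passed background in either clone.

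Members and lists were chosen with earlier results of these data known. Named were all member probe sets and, per pathway list, the gene with the largest difference, the highest signal and any past 2-fold. Genes of like pattern were not sought, since 2 arrays give 1 difference per gene. The rule of size was tested on simulated differences. The scalings were run on the deposited values with a constant added to clone 2, which they remove by design. Alternatives were 3 scalings (loess, span 0.3, quantile and median), a background level from sensory receptor genes or from the 99th or 90th percentile, no background filter, the mean over probe sets, the omission of suffixed probe sets, each clone alone, and, chosen after the data were seen, the shared Cbx3 probe sets. Python 3.11.15, pandas 2.3.3 and statsmodels 0.14.6 were used.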

Additional observations from a re-analysis of the deposited data

Results flagged for a closer look

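Signal appeared in probe sets that the rule for the members leaves out. Of the 4 probe sets listed for both Cbx3 and its pseudogene Cbx3-ps5, 3 had a signal above background in both clones, with mean signals over the clones of 11.67 (1416884_at), 11.23 (1448504_a_at) and 10.28 (1439421_x_at) on the log2 scale. The background levels were 6.02 and 5.89, and the single probe set listed for Cbx3 alone was not above them. How much of this signal comes from the pseudogene was not tested.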

How the results depend on the processing

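Under the 10 alternatives other than leaving out a clone, 0 members differed 2-fold. The members' median difference ran from 0.019 (quantile normalization) to 0.175 (median centring), and that of all genes from -0.009 to 0.17. With either clone left out, 19 member probe sets were above background. Without the suffixed probe sets (_s_at, _x_at, _a_at) 12 were, with none left above background for Trim28 and Cbx1, and 2 DNA methylation genes passed in both clones. Of genes in the pathway lists, 1 was past 2-fold as reported and 0 under quantile or loess normalization, with the mean over probe sets, or without suffixed probe sets. Without a background filter 186 of all genes were past 2-fold. Quantile normalization moved the mean signal of Cbx5, 10.31 in both clones, to 10.313. Levels with 1 clone left out are the other clone's signals, from 13.21 to 13.26 for Trim28, 9.72 to 9.76 for Setdb1, 8.20 to 8.42 for Atf7ip, 10.95 to 11.39 for Cbx1, 5.08 to 5.23 for Cbx3, 10.31 for Cbx5, 9.92 to 9.96 for Ehmt1, 10.93 to 11.06 for Ehmt2 and 10.52 to 10.68 for Morc3. Gene differences turned sign for Trim28 (0.04 after median centring), Setdb1 (-0.12 without suffixed probe sets), Ehmt1 (-0.046 under quantile normalization) and Ehmt2 (-0.025 with the mean over probe sets), among others, and those of Atf7ip, Cbx1 and Morc3 stayed above 0 wherever a value was left. No paired analysis was possible because there is 1 group. Signals near the background level limit the dim probe sets of Cbx1, Cbx3, Cbx5 and Morc3.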
